A study of Mus musculus with 4 samples.

Results

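The 10 genes described here were the transforming growth factor beta 1 gene Tgfb1, the receptor genes Tgfbr1, Tgfbr2 and Tgfbr3, the signal transducer genes Smad2, Smad3, Smad4 and Smad7, and the corepressor genes Ski and Skil. They were chosen by gene name, and all their probes on the array were taken, 22 in number, out of 32877 genes with a name. Single-colour Agilent mouse arrays measured the transcripts in 4 groups of 1 array each, namely naive T cells of WT and of Nr4a-TKO and the iTreg cells grown from each for 3 h. The mice were C57BL/6J, and the lines are described as 6 to 8 weeks old. Nr4a-TKO stands for floxed Nr4a1, floxed Nr4a2 and Nr4a3-/- alleles together, and the Cre driver is not given in the sources used here. All naive cells, of both genotypes, were CD4+ T cells that were sorted as CD62L high, CD44 low and Foxp3 negative from irradiated Rag2-/- recipients 6 weeks after a bone marrow transplant. Nr4a-TKO cells had shared their recipient with WT marrow given at 1:1, whereas WT cells came from recipients of WT marrow alone, so genotype and kind of chimera cannot be told apart. The iTreg arrays held cells after 3 h on plates coated with 2 μg/ml anti-CD3 and 0.5 μg/ml anti-CD28, with antibodies to IFN-γ and IL-4 at 1 μg/ml, 10 ng/ml IL-2 and recombinant human TGF-β1. The methods give 0.2 or 0.5 ng/ml of TGF-β1 without saying which dose these cells had, and no array had the antibodies without TGF-β1, so the effects of both cannot be told apart.

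TGF-β1 is secreted in a latent form, with the growth factor held inside its own propeptide until it is released. The free factor binds the type II receptor TGFβRII, which recruits and phosphorylates the type I receptor TGFβRI, and TGFβRI then phosphorylates Smad2 and Smad3. These pair with Smad4 and enter the nucleus to regulate genes, while Smad7 blocks the receptor, and Ski and SnoN, the product of Skil, hold Smad complexes in a repressed state. In CD4+ T cells this pathway, together with the T cell receptor, is known for inducing Foxp3 and the regulatory fate in culture.

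Sequences of a few probes and promoters are given to show where in each gene the values were read. The probe of Tgfbr1 at chr4:47419898-47423556 (mm9, plus strand) spans an exon junction in the coding part for the end of the kinase domain, the part of the receptor that phosphorylates Smads. The probe of Tgfb1 at chr7:26477408-26477467 (mm9, plus strand) lies in the coding part for the propeptide, and the one at chr7:26489877-26489936 in the coding part for the mature growth factor. Each is 60 bases long, and no base is marked.
Tgfbr1, kinase domain: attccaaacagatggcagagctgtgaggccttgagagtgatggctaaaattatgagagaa
Tgfb1, propeptide: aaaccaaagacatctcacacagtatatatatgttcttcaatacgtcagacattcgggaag
Tgfb1, mature factor: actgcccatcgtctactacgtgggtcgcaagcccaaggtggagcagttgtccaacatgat

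The bases before the transcription start are shown for Tgfbr1, which had the largest difference between the genotypes of the 10 genes, and for Tgfb1 and Tgfbr2, a ligand and receptor that went opposite ways at 3 h. Each stretch is the 250 bases before a start in RefSeq (GRCm38.p6), written 5′ to 3′ on the gene's strand, with the letters AGGAAG or their reverse complement in capitals. They lie at chr4:47352972-47353221 (plus strand) and chr4:47385966-47386215 (plus strand) for the first and the second start of Tgfbr1, at chr7:25686752-25687001 (plus strand) for Tgfb1 and at chr9:116175364-116175613 (minus strand) for Tgfbr2.
Tgfbr1, first start: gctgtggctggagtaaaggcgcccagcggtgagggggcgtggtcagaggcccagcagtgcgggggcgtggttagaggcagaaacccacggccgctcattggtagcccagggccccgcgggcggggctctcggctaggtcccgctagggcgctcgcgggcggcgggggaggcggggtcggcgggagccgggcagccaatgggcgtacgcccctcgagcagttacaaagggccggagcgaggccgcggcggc
Tgfbr1, second start: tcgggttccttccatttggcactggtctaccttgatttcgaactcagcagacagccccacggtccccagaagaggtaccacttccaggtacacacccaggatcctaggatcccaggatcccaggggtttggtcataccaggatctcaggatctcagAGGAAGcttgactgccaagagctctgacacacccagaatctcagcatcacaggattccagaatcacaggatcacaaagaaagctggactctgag
Tgfb1: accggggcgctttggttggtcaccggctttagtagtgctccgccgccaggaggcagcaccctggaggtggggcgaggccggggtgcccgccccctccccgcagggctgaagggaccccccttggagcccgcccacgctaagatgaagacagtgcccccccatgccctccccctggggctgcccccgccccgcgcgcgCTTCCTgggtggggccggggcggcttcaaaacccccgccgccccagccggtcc
Tgfbr2: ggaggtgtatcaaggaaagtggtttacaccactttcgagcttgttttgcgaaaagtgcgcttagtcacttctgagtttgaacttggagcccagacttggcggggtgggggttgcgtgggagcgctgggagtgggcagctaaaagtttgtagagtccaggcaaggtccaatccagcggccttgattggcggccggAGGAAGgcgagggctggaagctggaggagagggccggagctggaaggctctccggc

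RefSeq windows of 250 bases before to 50 bases after a start were given for 5 of the 10 genes, 6 windows in all, and were searched on both strands for 4 strings of letters. AGGAAG, which holds the core that Ets factors bind, was present in 4 of the 6 windows and in 35.4% of all 32851 windows of that length. In Tgfbr1 it began 30 bases after the first start, and 94 bases before and 24 bases after the second start. In Tgfb1 it began 53 bases before the start, on the other strand, and in Tgfbr2 56 bases before it. AAAGGTCA, the element to which Nr4a proteins bind as monomers, was in 0 of the 6 windows and in 1.51% of all windows. GTCTAGAC, a palindrome that Smads bind, was in 0 of the 6 and in 0.213% of all, and its shorter relative CAGACA was in 1 of the 6, the second window of Tgfbr1, and in 21.0% of all. The 250 bases before the first start of Tgfbr1 held 29 CG pairs, and those before its second start held 3. A match or its absence in such a window is a description of the letters alone.

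All values below are on the log2 scale after background correction and quantile normalization. A gene is represented by its probe of highest mean level. This probe was, for each of the 10 genes, well above background on all 4 arrays, as were 21 of the 22 probes. With 1 array per group no difference could be tested, and a difference of more than 2-fold was counted as called. Across probes with 5 or more spots, the median SD was 0.112 to 0.130 within an array. From this the SD of a difference between a pair of arrays came to 0.171 for the change in WT, 0.175 for the change in Nr4a-TKO, 0.163 for the genotypes in naive T and 0.182 for the genotypes at 3 h. This array SD covers spots on an array and leaves out the spread between mice and cultures. The values are per amount of RNA, so fewer cells with a transcript and less of that transcript per cell cannot be told apart.

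Among markers read to check the labels, the 5 CD4 T cell genes on the array (6 listed) were well above background throughout. Their summed log2 level was 13.15 to 14.11. The 6 naive T genes had a summed log2 level of 13.06 in both naive samples against 11.41 and 11.26 at 3 h. The activation genes had 12.4 and 12.7 in WT and Nr4a-TKO naive T, and 15.1 and 15.2 at 3 h. All 5 Treg genes were well above background on the 4 arrays, though the naive cells were sorted as Foxp3 negative. In naive T their genotype differences were -1.30 (Foxp3), -1.37 (Ikzf2), -0.06 (Il2ra), 0.84 (Ctla4) and -0.24 (Tnfrsf18). Of the markers of other cells, those well above background on the 4 arrays were 4 of 4 for B cells, with summed levels of 8.38 to 9.42, 2 of 2 for CD8 T cells (6.22 to 7.15), 2 of 5 for myeloid cells (15.08 to 15.28, mostly Itgam), 2 of 3 for erythroid cells (7.02 to 7.48), 1 of 4 for platelets (5.05 to 5.59) and 0 of 2 for NK cells (4.28 to 4.84). Adgre1 and Ncr1, defining genes of macrophages and NK cells, were above it on none. Klrb1c of the NK cell list and Lyz2 and Cd14 of the myeloid list were above it on 3 arrays each. The myeloid genes were far apart in level, with 14.98 to 15.14 for Itgam and 11.16 to 11.76 for Csf1r. Cd14 read 3.77 to 6.66 and Lyz2 3.79 to 4.27. The part of other cells in the results below was not tested. Nr4a1, 1 of the targeted genes, did not read lower where the label is Nr4a-TKO, with 8.39 against 7.05 in naive T and 11.83 against 11.34 at 3 h. At 3 h both probes of Nr4a2 were higher under the label Nr4a-TKO, by 1.37 and 1.36, whereas 2 of the 3 Nr4a3 probes were lower there by 1.48 and 1.87 and the other differed by 0.18. What the alleles leave of each transcript was not analysed here, so these probes do not settle the genotype, and every direction between genotypes rests on the labels.

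**Figure D1:**
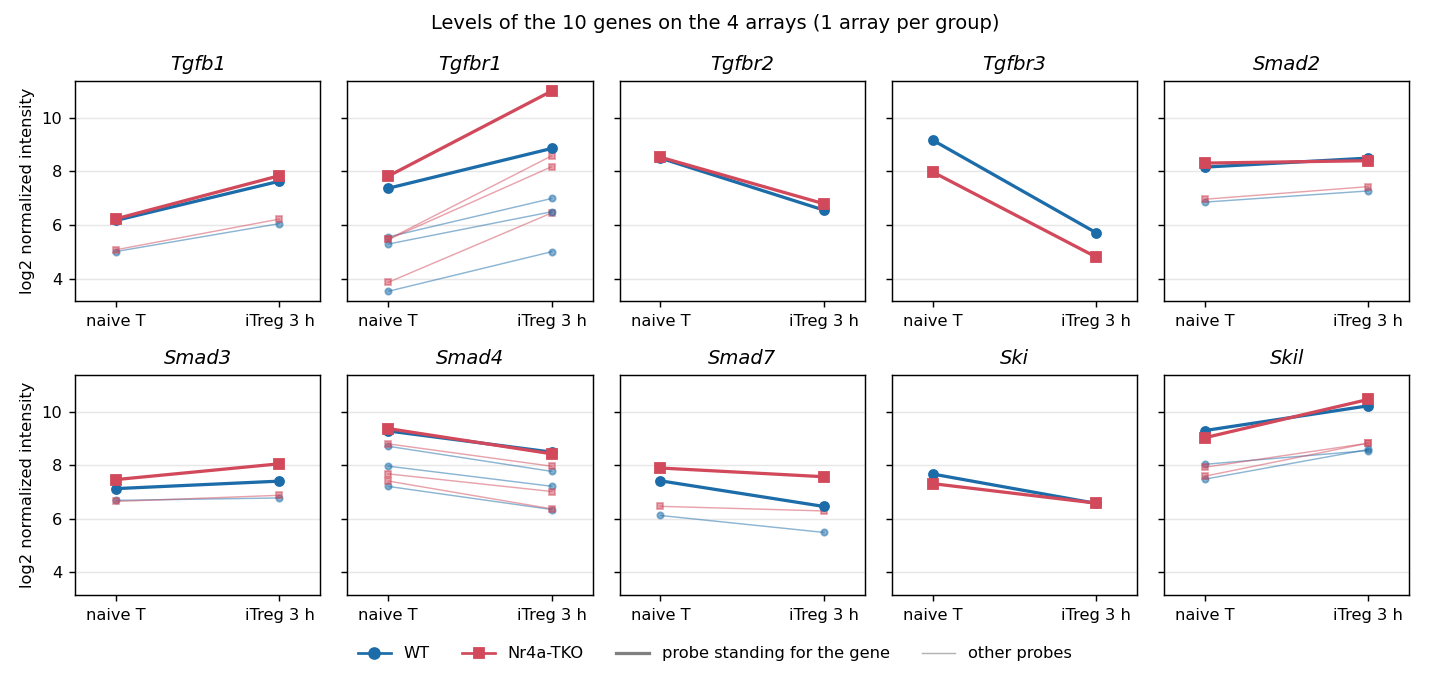
Log2 normalized intensity of the 10 genes in naive T and in iTreg at 3 h, with 1 panel per gene. Circles are WT and squares are Nr4a-TKO, with 1 array per point; thick lines are the probe that stands for the gene and thin lines the other probes. Tgfbr1 separates by genotype at 3 h, with 8.86 in WT and 11.00 in Nr4a-TKO.

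The first question was how the transcripts of the pathway moved in WT cells over 3 h of iTreg culture. The ligand Tgfb1 and the type I receptor Tgfbr1 were more than 2-fold higher at 3 h, and the type II receptor Tgfbr2, the co-receptor Tgfbr3 and the corepressor Ski were more than 2-fold lower. These were 2 of the 10 genes higher, where 8.46% of all 23418 genes tested were higher, and 3 of the 10 lower, where 8.45% of all were. The median of the 10 was -0.26, beside -0.05 for all genes. The receptors therefore did not move as 1 group, since the 3 receptor genes had changes of 1.49, -1.94 and -3.46.

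Among the WT arrays, the Tgfb1 probe in the propeptide read 6.17 in naive T and 7.64 at 3 h, a difference of 1.46 or 2.76-fold. The probe in the mature factor read 5.01 and 6.05, a difference of 1.04. Both probes were thus higher at 3 h, by more than the array SD. This is the transcript of the cells' own gene, while the TGF-β1 added to the medium was a human protein.

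Tgfbr1 had 4 probes, which run along the gene on chromosome 4. In the order of the gene their changes in WT were 1.43, 1.48, 1.21 and 1.49. The last probe, at chr4:47427421-47427480, stands for the gene and read 7.37 in naive T and 8.86 at 3 h. The probe at chr4:47395833-47395892 was not well above background in WT naive T, so its change is a bound. The first of the 4 and that probe are annotated to Ensembl transcripts alone, and the other two to the RefSeq mRNA of the receptor. All of them were thus higher at 3 h by similar amounts.

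Tgfbr2 and Tgfbr3 had 1 probe each. Tgfbr2, whose product is the receptor that binds the ligand first, read 8.50 in naive T and 6.56 at 3 h in WT, which is 3.84-fold lower at 3 h. The file places this probe at chr9:115996798-115996807, fewer bases than the probe has. Tgfbr3 codes for betaglycan, a co-receptor that presents ligand to the type II receptor, and its probe is at chr5:107535818-107535877. It read 9.17 in naive T and 5.71 at 3 h, 11.0-fold lower, and with a normexp offset of 50 the change was -2.61 in place of -3.46. Its change of -3.46 was number 58 from the lowest among the 23418 genes tested.

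The receptor-activated Smads stayed within 2-fold in WT. Smad2 read 8.16 in naive T and 8.50 at 3 h, and its other probe read 6.86 and 7.27. Smad3 read 7.13 and 7.41, and its other probe read 6.69 and 6.78. These were all slightly higher at 3 h, the last by less than the array SD of 0.171.

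Smad4, the partner that both receptor-activated Smads need, had 4 probes, and all were lower at 3 h in WT, by 0.75 to 0.94 on the log2 scale. The probe that stands for the gene read 9.28 in naive T and 8.49 at 3 h, 1.73-fold lower. Smad7, the inhibitory Smad, read 7.42 and 6.46, 1.94-fold lower, and its other probe read 6.13 and 5.49. Neither gene passed 2-fold, but each difference was at least several times the array SD.

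The corepressors went opposite ways in WT. Ski read 7.67 in naive T and 6.58 at 3 h, 2.14-fold lower. This value was just past the threshold, and it was -0.80 with a normexp offset of 50 and -0.98 without background correction, both under 2-fold. Skil read 9.30 and 10.22, 1.90-fold higher, and its other probes were higher by 0.51 and 1.11. With the processed signal scaled to the 75th percentile Skil was past 2-fold, and with the deposited values it was 1.11 higher.

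**Figure D2:**
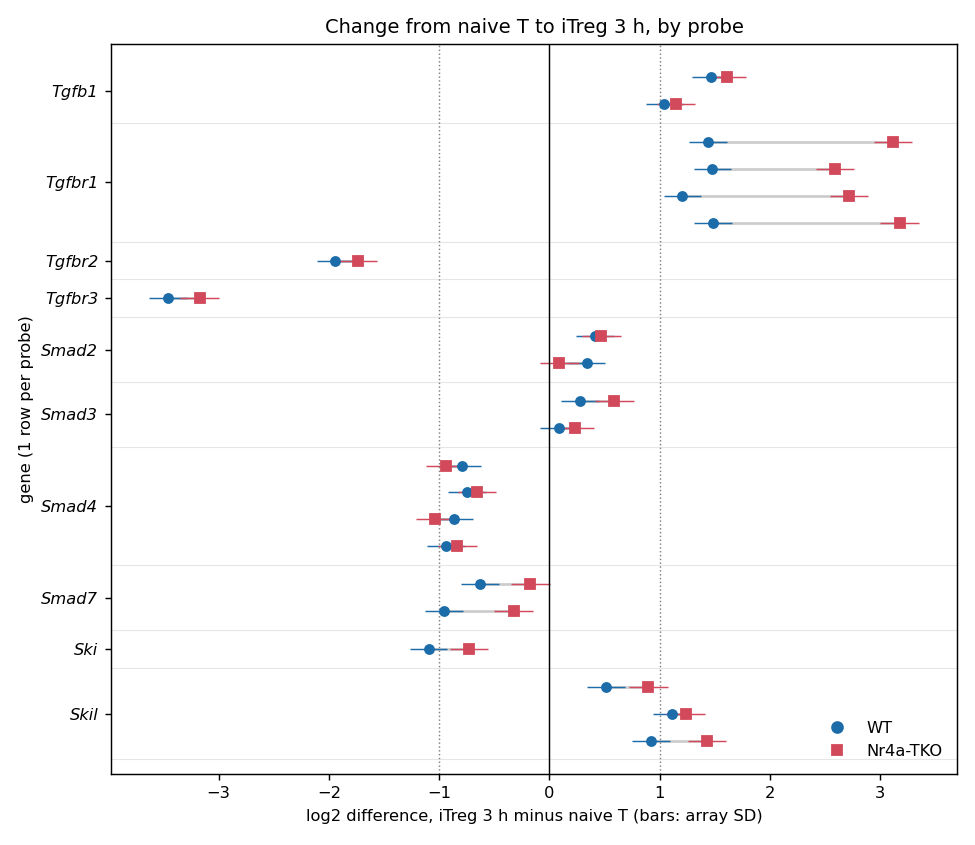
Change over 3 h of iTreg culture for each of the 22 probes, as a log2 difference, with 1 row per probe. Circles are WT, squares are Nr4a-TKO, bars are the array SD and dotted lines mark 2-fold. The widest gap among the 10 genes is that of Tgfbr1, whose 4 probes lie between 1.21 and 1.49 in WT and between 2.59 and 3.18 in Nr4a-TKO.

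The same change was then taken between the arrays labelled Nr4a-TKO. Here 3 of the 10 genes were more than 2-fold higher at 3 h, Tgfbr1, Tgfb1 and Skil, where 7.69% of all 23920 genes tested were higher. Tgfbr2 and Tgfbr3 were more than 2-fold lower, 2 of the 10, where 8.01% of all were lower. The median of the 10 was -0.12, beside -0.02 for all genes. Each of the 10 genes had the same sign of change in both genotypes.

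Tgfbr1 read 7.83 in Nr4a-TKO naive T and 11.00 at 3 h, a difference of 3.18 or 9.04-fold, number 50 from the highest among the 23920 genes tested. Its other probes were higher by 3.12, 2.59 and 2.72. Tgfb1 read 6.23 and 7.84, a difference of 1.61, with 1.15 at its other probe. Skil read 9.03 and 10.46, a difference of 1.43, and its other probes were higher by 0.90 and 1.23.

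Tgfbr2 read 8.53 in Nr4a-TKO naive T and 6.79 at 3 h, 3.33-fold lower, and Tgfbr3 read 7.98 and 4.81, 9.02-fold lower. The Tgfbr3 change of -3.17 was -1.96 with a normexp offset of 50 and -2.45 without background correction. Of the genes within 2-fold, Smad4 was lower by 0.94 at its main probe and by 0.66 to 1.04 at the others. Ski read 7.31 and 6.59, Smad7 read 7.90 and 7.57, Smad3 read 7.47 and 8.05, and Smad2 read 8.31 and 8.40. The Smad2 difference of 0.09 was less than the array SD of 0.175, and that at its other probe was 0.47.

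The difference of the changes between the genotypes, Nr4a-TKO minus WT, was past 2-fold for 1 of the 10 genes. That gene was Tgfbr1, with 1.69 or 3.23-fold. Over 22443 genes tested, 2.42% were past 2-fold in this direction and 2.41% in the other. The array SD of such a difference was 0.245. Smad7 had 0.63, and Skil had 0.51 with 0.38 and 0.13 at its other probes. The other 7 genes lay between -0.25 and 0.37. For Smad7 the 2 probes had 0.63 and 0.46, since its values at 3 h were less far below naive T in Nr4a-TKO. For Tgfbr1 the 4 probes had 1.68, 1.11, 1.51 and 1.69, the 1.11 being at the probe that was dim in WT naive T.

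In naive T the genotypes were compared directly. Tgfbr3 was lower on the array labelled Nr4a-TKO, with 7.98 against 9.17, which is 2.28-fold. This was 1 of the 10 genes past 2-fold lower, where 1.68% of all 23309 genes tested were lower, and 0 of the 10 were higher, where 1.92% of all were. Smad7 was higher by 0.48, with 0.34 at its other probe, and Tgfbr1 was higher by 0.45, with 0.17, 0.33 and -0.09 at its others. Ski was lower by 0.36 and Skil by 0.27, but the other Skil probes differed by -0.11 and 0.11. At the probes that stand for them, Tgfb1, Tgfbr2, Smad2 and Smad4 differed by 0.03 to 0.15, less than the array SD of 0.163. Smad3 was 0.34 higher at 1 probe and -0.04 at the other.

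At 3 h, 2 of the 10 genes were more than 2-fold higher on the array labelled Nr4a-TKO, Tgfbr1 and Smad7, where 1.73% of all 23701 genes tested were higher. None of the 10 was more than 2-fold lower, where 1.93% of all were. The median of the 10 was 0.22, beside 0.00 for all genes. Tgfbr1 read 11.00 against 8.86 in WT, a difference of 2.14 or 4.42-fold, number 48 from the highest among the 23701 genes tested. In the order of the gene its 4 probes were higher by 1.59, 1.45, 1.68 and 2.14. All were well above background on both arrays, and the lowest of these differences was several times the array SD of 0.182. Among the 7 other settings tried, the Tgfbr1 difference ranged from 1.72, the mean of all its probes, to 2.15.

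Smad7 read 7.57 in Nr4a-TKO and 6.46 in WT at 3 h, a difference of 1.11 or 2.16-fold, and its other probe had 0.80. The Smad7 difference was 0.80 with a normexp offset of 50, 0.95 without background correction and 0.96 as the mean of both probes, each under 2-fold. Smad3 was 0.65 higher at its main probe and 0.10 at the other. Tgfbr3 was lower, with 4.81 against 5.71, a difference of -0.91. That value was -0.39 with a normexp offset of 50 and -0.57 without background correction. At the probes that stand for them, Tgfb1, Tgfbr2 and Skil were higher by 0.21 to 0.24, a little more than the array SD. Smad2, Smad4 and Ski differed there by less than the array SD. The other Tgfb1 probe had 0.17, less than the array SD, and the other Smad4 probes had -0.20, 0.02 and 0.19.

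**Figure D3:**
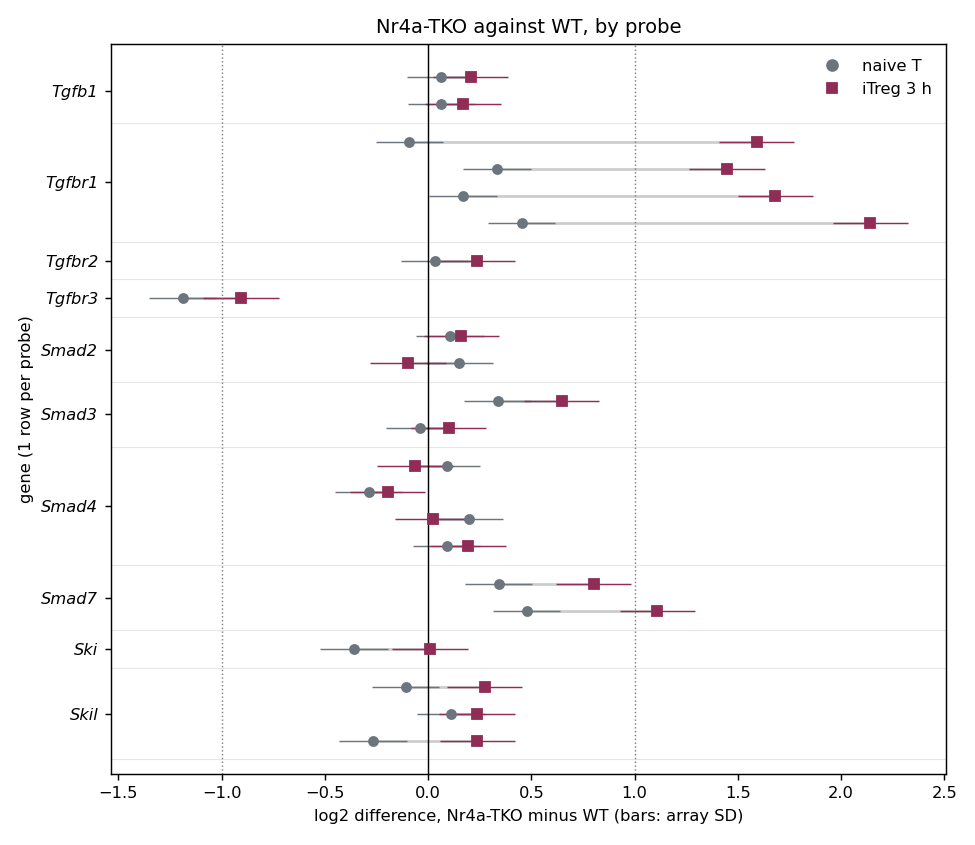
Difference between Nr4a-TKO and WT for each of the 22 probes, as a log2 difference, with 1 row per probe. Circles are naive T, squares are iTreg at 3 h, bars are the array SD and dotted lines mark 2-fold. All 4 Tgfbr1 probes lie between 1.45 and 2.14 at 3 h and between -0.09 and 0.45 in naive T.

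Taken over the 4 arrays at the probes that stand for the genes, Tgfbr1 was lowest in WT naive T, then came Nr4a-TKO naive T. WT iTreg was next and Nr4a-TKO iTreg was highest, and each step exceeded its array SD. At the other Tgfbr1 probes the naive arrays differed by -0.09, 0.33 (a bound) and 0.17, so the first step was not shared by all. Tgfb1 had the order of the main Tgfbr1 probe, but its naive arrays differed by 0.06, less than their SD. Tgfbr3 ran from Nr4a-TKO iTreg to WT iTreg, Nr4a-TKO naive T and WT naive T, each step beyond its SD. Tgfbr2 had both naive arrays on top with no difference beyond their SD. Smad7 was lowest in WT iTreg, and the next step, from WT naive T to Nr4a-TKO iTreg, was 0.15, less than its SD of 0.170. No step of Smad2 exceeded its SD.

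The targeted gene Nr4a3 lies on the same chromosome as Tgfbr1. On mm9 the first Nr4a3 probe began 635 kb after the last Tgfbr1 probe ended. This neighbourhood was looked at after the Tgfbr1 values had been seen. Between both genes, 7 probes of 5 named genes or transcripts, among them Alg2, Sec61b and AI592952, were well above background on both arrays at 3 h, and their genotype differences ranged from -0.36 to 0.10. In a window that reached 1 Mb beyond both genes, 35 probes other than those of Tgfbr1 and Nr4a3 were well above background on both arrays, of which 0 were past 2-fold higher and 1 past 2-fold lower in Nr4a-TKO. The lower one was in Tmeff1, with -1.18 in naive T and -1.50 at 3 h. A Trim14 probe that was dim in WT was higher in Nr4a-TKO by at least 1.44 in naive T and 1.11 at 3 h, whereas both other Trim14 probes differed by -0.47 and 0.06 in naive T and by 0.31 and 0.23 at 3 h. The part of the targeted allele in the Tgfbr1 difference was not tested.

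**Figure D4:**
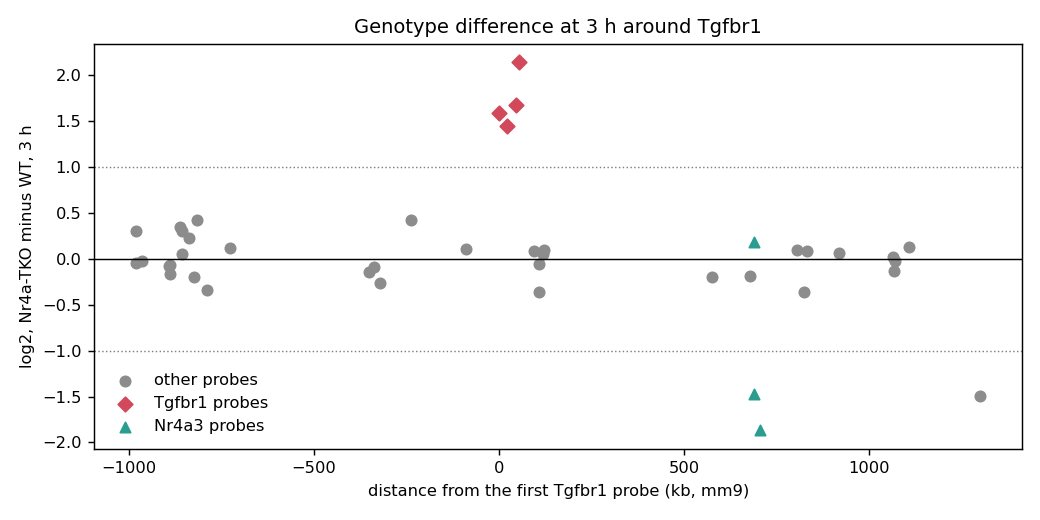
Genotype difference at 3 h, Nr4a-TKO minus WT on the log2 scale, for probes well above background on both arrays, against the distance in kb from the first Tgfbr1 probe. Diamonds are Tgfbr1, triangles Nr4a3 and circles other probes, and dotted lines mark 2-fold. The 4 Tgfbr1 probes lie between 1.45 and 2.14, while the other probes reach at most 0.43.

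The genes with the pattern nearest to a member were taken by the Euclidean distance of the 4 centred log2 values, among 19947 genes well above background on all arrays. For Tgfbr1, which had the largest rise in WT of the 10 genes, the nearest were Rora at 0.69, Ccl4 at 0.80 and Eea1 at 0.82. Rora, a nuclear receptor gene, read 7.01 and 6.91 in WT and Nr4a-TKO naive T, then 7.74 and 9.73 at 3 h. No gene was within 0.5 of Tgfbr1. For Tgfbr3, which had the largest fall, the nearest was Pdlim4 at 0.34, which read 8.51 and 7.56 in naive T and 4.81 and 4.15 at 3 h, and the next were transcripts without a gene symbol.

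The rest of the pathway was described by 8 lists with 89 genes, all on the array. In WT, 8 of the 79 tested were past 2-fold higher at 3 h and 3 past 2-fold lower, where 8.46% and 8.45% of all genes were. In Nr4a-TKO 11 of 78 were higher and 2 lower, where 7.69% and 8.01% of all were. Between the genotypes, 2 of 76 were higher and 2 lower in Nr4a-TKO naive T, where 1.92% and 1.68% of all were, and 4 of 79 were higher and 1 lower at 3 h, where 1.73% and 1.93% of all were. The counts of single lists below are small and stand beside the same shares. They take 1 probe per gene, and other probes of some genes not counted passed 2-fold. The median of those tested among the 89 genes lay between -0.04 and 0.00 in these comparisons, and that of all genes tested between -0.05 and 0.00. The lists are described below, and most of their genes stayed within 2-fold.

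Of the other ligands, 7 of 12 could be tested in WT and 0 passed 2-fold. Bmp4, a bone morphogenetic protein, read 5.94 and 5.95 in WT, and 5.83 and 7.20 in Nr4a-TKO, but its other probe changed by -0.84 and -0.60. Inhba, which codes for an activin subunit, was above background on 1 array alone, that of Nr4a-TKO iTreg, with 4.47. Of the 12 genes for latency and activation, 11 were tested in WT and 1 was higher at the probe that stands for it. This was Lrrc32, which codes for GARP, the protein that docks latent TGF-β on the cell surface. It read 4.56 and 5.62 in WT, and 3.89 and 4.72 in Nr4a-TKO. Furin, Itgav and Itgb8 changed by 0.18, 0.29 and -0.17 in WT at their main probes, but other probes passed 2-fold. The other Furin probe had 1.51 in WT and 2.41 in Nr4a-TKO. In WT the other probes of Itgav had 0.10 to 1.37, and those of Itgb8 0.34 to 2.03 as bounds. Between genotypes the main Itgb8 probe had -0.95 in naive T and -0.79 at 3 h, both bounds. At 3 h its other probes had -2.41 to -0.72, also bounds, and they were too dim for a difference in naive T.

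Among the 9 other receptors tested, Acvr2a, a type II receptor for activins, was 1.44 higher on the array labelled Nr4a-TKO at 3 h, with 8.49 against 7.05, and by 0.38 to 0.84 at its other probes. It had changed by 0.46 in WT and by 1.15 in Nr4a-TKO, and its other probes by -0.06 and 0.54 in WT and by 0.14 and 1.01 in Nr4a-TKO. Other probes passed 2-fold for Acvrl1, Bmpr2 and Bmpr1a, whose main probes did not. The other Acvrl1 probe had -2.95 in WT and -3.09 between genotypes in naive T, both bounds. Those of Bmpr2 had 0.71 to 0.89 in WT and 1.22 to 1.30 in Nr4a-TKO, against -0.48 and -0.51 at its main probe. That of Bmpr1a had -1.18 between genotypes in naive T, against -0.39 at its main probe. None of the other Smads that could be tested passed 2-fold in any comparison.

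Of the 19 regulators of receptors and Smads, 2 were higher and 2 lower in WT. Smurf2, a ubiquitin ligase that Smad7 brings to the receptor, read 9.35 in naive T and 8.03 at 3 h, a change of -1.32, with -1.03 at its other probe. Nedd4l, a ligase that acts on activated Smad2 and Smad3, had -1.10, and -0.77 and -0.65 at its others. In Nr4a-TKO these ligase genes had -0.85 and -0.93. Strap, a scaffold that binds Smad7 and the receptor, had a change of 1.64 in WT, with 1.60 in Nr4a-TKO, and the nuclear import factor gene Ipo7 had 1.56 and 1.73.

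Among the 13 Smad partners and corepressors, Tgif1 and Tgif2, which code for homeodomain corepressors of Smad2 and Smad3, were the 2 that were higher in WT. Tgif1 read 6.88 in naive T and 9.48 at 3 h, a change of 2.60, with 2.56 in Nr4a-TKO, and its other probes were higher by at least 1.73. Tgif2 had 2.01 in WT and 1.67 in Nr4a-TKO, but its other probes had 0.21 to 0.78. Zeb2, a zinc finger repressor that binds Smads, had -1.49 in WT and -0.08 in Nr4a-TKO at its main probe, while its other probes changed by 0.32 to 1.44 in WT. Hipk2 was lower in Nr4a-TKO naive T by 1.19 on the log2 scale and had changed by 0.02 in WT, while its other probes differed by -0.13 and -0.76 in naive T and changed by 0.35 and 0.41 in WT.

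On the Smad-independent branch, 1 of 7 genes passed 2-fold in each genotype. Map3k7, which codes for the kinase TAK1, read 6.98 and 8.08 in WT and had a Nr4a-TKO change of 0.59, and its other probes had 0.97 to 1.13 in WT and 0.63 to 0.94 in Nr4a-TKO. Traf6, the ligase that activates it, had 0.50 and 1.30 at its main probe, while its other probes had 0.75 to 1.02 in WT and 0.24 to 1.06 in Nr4a-TKO, so they did not show the same order of the genotypes. Of the 10 genes known to respond to TGF-β that were tested, 2 were higher in WT. Pmepa1, whose product restrains the pathway, read 5.01 and 6.49 in WT, a change of 1.48, and 5.24 and 7.64 in Nr4a-TKO, a change of 2.39. At 3 h it was 1.14 higher on the array labelled Nr4a-TKO. Cdkn1a, which codes for the cell cycle inhibitor p21, was not well above background in naive T and was at least 4.47-fold higher in WT and at least 8.45-fold higher in Nr4a-TKO at 3 h, but its other probes gave changes between 0.39 and 1.27.

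Id1 and Id2, inhibitors of helix-loop-helix factors, went opposite ways, with changes of 0.87 and -0.93 in WT and of 1.18 and -1.53 in Nr4a-TKO. At the other Id2 probe the changes were -1.67 (WT) and -1.38 (Nr4a-TKO), so the Id2 probes did not share an order of the genotypes. In Nr4a-TKO, Id2 was 1.05 higher in naive T and 0.45 higher at 3 h, and by 1.83 and 2.12 at its other probe. Cdkn2b stood at 7.12 on the array of Nr4a-TKO naive T and between 3.88 and 4.08 on the others. Its other probe was too dim to give a difference in any comparison. Foxp3 was lower by 1.30 in Nr4a-TKO naive T and by 1.36 at 3 h on the log2 scale, and changed by 0.12 and 0.06 in WT and Nr4a-TKO. It is named outside the rule for naming genes, as the last of the genes of this list past 2-fold.

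**Figure D5:**
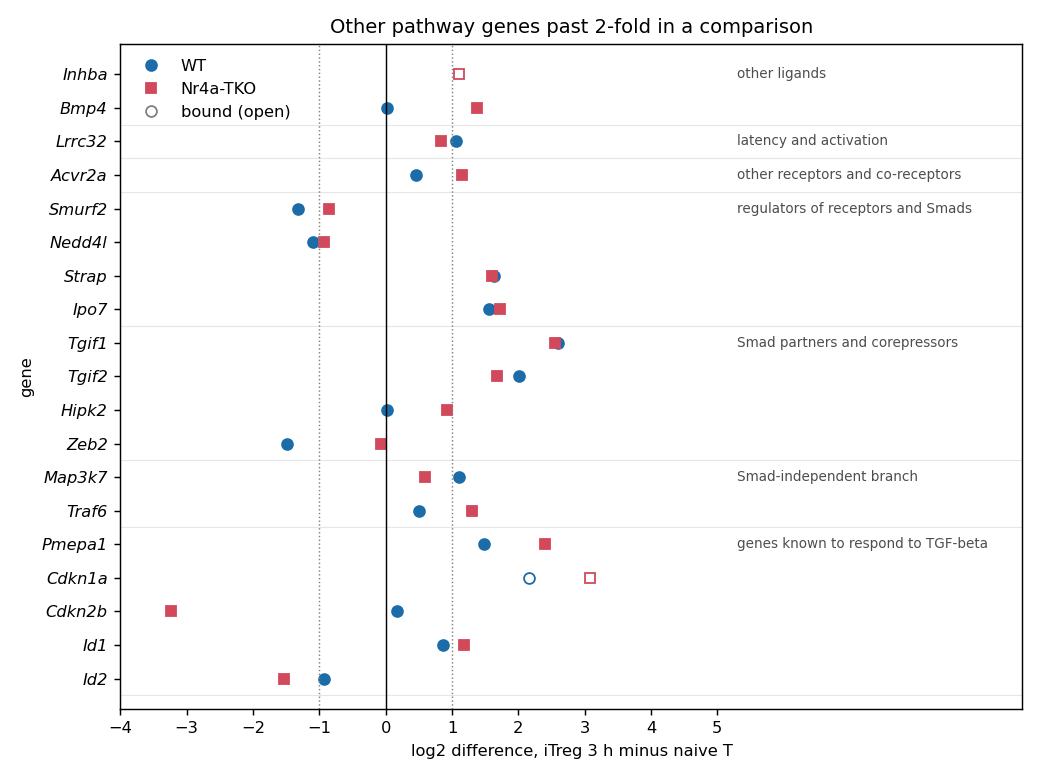
Change over 3 h of iTreg culture, as a log2 difference, for 19 of the other pathway genes past 2-fold in at least 1 comparison, up to 5 per list and grouped by list; Foxp3 is not shown. Circles are WT, squares are Nr4a-TKO, open symbols are bounds and dotted lines mark 2-fold. Tgif1 had the largest fully measured rise in WT, at 2.60, and Cdkn2b the lowest value in Nr4a-TKO, at -3.24.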

How the data were processed

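The 4 arrays were grouped by their labels. For each, the authors deposited the scanner output of Agilent Feature Extraction 11.5.1.1, with intensity values per spot, the median intensity of the local background, a processed intensity and flags, with probe coordinates on mm9. The deposited value table is on the log2 scale. It was found to be the log2 of the processed intensity less a constant per array, whereas the methods name RMA.

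Spot intensities were corrected with normexp in limma 3.58.1 (R 4.3.3, offset of 0), quantile-normalized over the 4 arrays, put on the log2 scale and averaged over the spots of a probe, without control spots and without 115 to 160 outlier spots per array. Tables and plots were made in Python 3.11.15 (numpy 2.4.6, pandas 2.3.3, matplotlib 3.10.9). Median foreground was 44.8 to 45.4 per array, background 20 to 21, and 65.0% to 67.7% of probes were well above background. The number of arrays limits the precision. A dim probe took a floor of 3.07 to 3.45, the least value found among its array's probes well above background, where its own was lower. This makes a difference a bound, and probes dim on both arrays gave none. Of 56605 probes, 41700 carry a current symbol, 1518 were named by transcript and 520 by synonym through RefSeq (GRCm38.p6), 8417 kept their name and 4450 have none.

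The 10 genes, the lists and the settings were chosen with earlier results of these data known. Named from the lists were up to 5 genes each past 2-fold in a comparison, by the size of the change in WT, and Foxp3. Furin, Itgav, Itgb8, Acvrl1, Bmpr2 and Bmpr1a were named for their other probes. The alternatives were the processed intensity scaled to its 75th percentile, an offset of 50, the deposited value table, uncorrected background, averaging a gene's probes, only probes well above background throughout, no floor, and thresholds of 1.5-fold and 3-fold. Arrays at 24 h and the sequencing were not used here.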

Additional observations from a re-analysis of the deposited data

Results flagged for a closer look

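Among the 10 genes and the named genes of the pathway lists, 1 gene moved in opposite directions in the genotypes by more than the array SD. Cdkn2b, which codes for the cell cycle inhibitor p15, changed from naive T to iTreg at 3 h by 0.17 in WT, just over the array SD of 0.171, and by -3.24 in Nr4a-TKO. This rests on 1 probe, as the other probe of the gene was too dim to give a difference in any comparison. With 1 array per group the difference was not tested.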

How the results depend on the processing

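No paired analysis was possible because each group had 1 array, and for the same reason no array could be left out. Of 40 differences, 10 genes in 4 comparisons, 13 were past 2-fold, and all 13 kept their sign under each of 7 other settings, 11 of them past 2-fold throughout. The others were Ski in WT and Smad7 at 3 h. The settings without dim probes and without a floor could not move these values, since each gene's probe was well above background on all arrays. Averaging could not move the 3 genes with 1 probe. The deposited values and the scaled processed intensity differ by little more than a constant per array, so they are nearly the same check. Of the 27 under 2-fold, 26 stayed under it, the exception being Skil in WT, and 2 changed sign under some setting, Smad2 and Ski at 3 h, both by small amounts. The count of the 10 genes higher at 3 h in Nr4a-TKO than in WT was 1 in place of 2 with a normexp offset of 50, without background correction, as the mean of all probes and at a 3-fold threshold. At 3-fold the count higher in WT was 0 in place of 2 and the count lower in Nr4a-TKO naive T was 0 in place of 1. At 1.5-fold the counts lower at 3 h were 5 in place of 3 in WT and 4 in place of 2 in Nr4a-TKO, and 1 in place of 0 was lower in Nr4a-TKO than in WT at 3 h.

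The ranges below take in counts past 2-fold under each setting and counts past 1.5-fold and past 3-fold. The other pathway genes past the threshold ranged from 4 to 13 higher and 0 to 14 lower in WT (8 and 3 as reported). In Nr4a-TKO they ranged from 6 to 16 and 1 to 8 (11 and 2). Between genotypes they ranged from 1 to 5 and 0 to 7 in naive T (2 and 2). At 3 h they ranged from 0 to 6 and 0 to 3 (4 and 1). All genes ranged from 781 to 3984 higher and 882 to 4060 lower in WT (1981 and 1979), 632 to 3871 and 828 to 4033 in Nr4a-TKO (1840 and 1915), 103 to 1221 and 89 to 1210 in naive T (448 and 391), and 75 to 1239 and 103 to 1233 at 3 h (410 and 457).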
